A study of Homo sapiens with 3 samples.

Results

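The 10 genes described here are members of the BCL2 family of apoptosis regulators, chosen by name from the 58051 genes in the deposited counts and all found there by Ensembl identifier among 19629 protein-coding genes. BCL2, BCL2L1 and MCL1 encode pro-survival proteins, BAX and BAK1 encode effectors, and BBC3, PMAIP1, BCL2L11, BIK and BID encode BH3-only proteins. Total RNA depleted of ribosomal RNA was sequenced from H9, an established line of human embryonic stem cells (hESCs), with wild-type genotype and no treatment, kept in Essential 8 Flex medium on vitronectin. There was 1 group with 3 replicates, each giving 1 library, and no source says whether they came from separate cultures, so the spread between them may be technical. No condition was contrasted with another, and the question asked of these data is how strongly each member was expressed relative to the others and to the rest of the genes.

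The BCL2 family controls permeabilization of the mitochondrial outer membrane, the step that commits most cells to the intrinsic pathway of apoptosis. Effectors open pores in that membrane, pro-survival proteins hold them in check, and BH3-only proteins tip the balance by inserting their BH3 domain into a groove of the pro-survival proteins or, for some of them, by engaging the effectors directly. Human embryonic stem cells are known for their readiness to undergo apoptosis after DNA damage. RNA levels do not give protein levels, and several of these proteins, MCL1 and BH3-only proteins among them, are controlled by turnover, phosphorylation or cleavage.

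The BH3 core is the sequence that the whole family shares, and the coding bases for it are shown here because they connect members with otherwise different proteins. The canonical coding sequence of each gene was searched for 6 codons that start with leucine and end with glycine or alanine followed by aspartate. Each of the 10 members held exactly 1 match, and 24.6% of 20046 protein-coding genes held at least 1, so the pattern alone does not mark a BH3 domain. Capitals mark the 18 bases of the 6 codons, with 6 bases on either side, read on the coding strand from the GRCh38 genome.
BCL2: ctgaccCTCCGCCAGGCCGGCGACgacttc
BCL2L1: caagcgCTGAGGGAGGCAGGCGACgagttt
MCL1: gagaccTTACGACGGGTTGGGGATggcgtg
BAX: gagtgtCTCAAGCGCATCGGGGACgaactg
BAK1: cggcagCTCGCCATCATCGGGGACgacatc
BBC3: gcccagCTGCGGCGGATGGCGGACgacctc
PMAIP1: actcaaCTCAGGAGATTTGGAGACaaactg
BCL2L11: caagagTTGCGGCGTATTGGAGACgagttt
BIK: ctgcggCTGGCCTGCATCGGGGACgagatg
BID: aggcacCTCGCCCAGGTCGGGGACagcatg
BBC3 was the member with an alanine codon where the other 9 have glycine. The match began at codon 97 of 239 in BCL2 (chr18:63318355-63318384, minus strand), at codon 90 of 233 in BCL2L1 (chr20:31721928-31721957, minus strand) and at codon 213 of 350 in MCL1 (chr1:150578871-150578900, minus strand). It began at codon 63 of 192 in BAX (chr19:48955781-48955810, plus strand) and at codon 78 of 211 in BAK1 (chr6:33575393-33575422, minus strand). Among BH3-only genes it lay at codon 29 of 54 in PMAIP1 (chr18:59902667-59902696, plus strand), the shortest protein of the family here, and at codon 141 of 193 in BBC3 (chr19:47226585-47226614, minus strand). It lay at codon 152 of 198 in BCL2L11 (chr2:111150097-111150126, plus strand), at codon 61 of 160 in BIK (chr22:43127710-43127739, plus strand) and at codon 90 of 195 in BID (chr22:17739421-17739450, minus strand). Every match lay within a single exon.

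The libraries held 10390984, 12024802 and 8655155 counts on genes in replicates 1, 2 and 3. Levels are given in TPM (transcripts per 1000000), computed from the counts with the summed exon length of each gene, and intervals are exact 95% Poisson intervals of the count, which cover counting error only. The cell type of the label was checked against its markers, and all 6 pluripotency genes examined were above 275 TPM in the mean, from NANOG at 275 ± 24.7 TPM (SD, n = 3) to LIN28A at 2576 ± 64.7 TPM. The 8 markers of ectoderm, mesoderm and endoderm lay between 0.306 TPM (HAND1) and 22.3 ± 5.66 TPM (MIXL1), and of 3 blood markers HBG1 had no read, PTPRC had 0.0549 TPM and CD34 had 0.445 TPM. In these bulk samples, fewer cells expressing a gene and less RNA of it per cell cannot be told apart. Counts of replicate 3 differed from those of replicates 1 and 2 by a chi-square of 4.17 and 3.42 per degree of freedom, against 1.81 between replicates 1 and 2.

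Among the pro-survival genes, MCL1 was the most highly expressed by far and BCL2, which gave the family its name, the least. MCL1 encodes a short-lived protein that binds BAK1 and several BH3-only proteins. Its gene (ENSG00000143384, chr1:150560895-150579738) received 4338, 4784 and 3388 reads, which gave 268, 254 and 245 TPM in replicates 1, 2 and 3, with a mean of 256 ± 11.3 TPM (SD, n = 3). This placed MCL1 at rank 501 of the 19629 protein-coding genes, above 97.4% of them. BCL2L1, which encodes BCL-xL, the pro-survival protein of mitochondria in many tissues (ENSG00000171552, chr20:31664452-31723989), had 63.0, 64.6 and 67.7 TPM from 688, 821 and 631 reads, with a mean of 65.1 ± 2.42 TPM (SD, n = 3). BCL2 (ENSG00000171791, chr18:63123346-63320128) had 82, 100 and 75 reads, or 2.50, 2.62 and 2.68 TPM, with a mean of 2.60 ± 0.0927 TPM (SD, n = 3). The values of the 3 genes did not overlap in any library. The lowest end of the counting intervals of BCL2 was 1.99 TPM in replicate 1 and the highest 3.36 TPM in replicate 3, so its low level was measured with some precision. BCL2 stood above 40.3% of protein-coding genes and was the member with the lowest mean TPM.

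Within each library, MCL1 exceeded BCL2L1 by 4.25, 3.93 and 3.62 times, a mean of 3.94 ± 0.316 (SD, n = 3), and exceeded BCL2 by 107, 97.0 and 91.6 times, a mean of 98.6 ± 7.96 (SD, n = 3). Both ratios pointed the same way in 3 of 3 libraries. With 3 libraries a two-sided exact sign-flip permutation test cannot go below p = 0.25, the value obtained for each of the 3 ratios examined, BAX to BAK1 included (0.25 after Benjamini-Hochberg adjustment over 3). MCL1 supplied 79.0 ± 1.33% of the summed TPM of the pro-survival genes, BCL2L1 20.2 ± 1.28% and BCL2 0.804 ± 0.0505% (SD, n = 3).

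The value of BCL2L1 depended on how its exons were counted. The lncRNA gene ABALON lies on the opposite strand, and 1735 bp of exons, 41.3% of the exon length of BCL2L1 and 91.2% of that of ABALON, belong to both genes. ABALON received 304, 305 and 280 reads, which is 467 reads per kb over the 3 libraries against 510 reads per kb for BCL2L1, a ratio of 0.916. Whether the counting used strand is not given in the sources used here, and reads of both genes over the shared exons cannot be told apart. With the shared bases left out of its length and all its reads kept, BCL2L1 had a mean of 110.8 TPM. The ratio of MCL1 to BCL2L1 was then 2.44. If reads over shared bases were counted for BCL2L1, this level is too high. The other overlaps were smaller: 5.27% of the exon length of MCL1 is shared with other genes, ADAMTSL4-AS1 among them (63 reads in all), and no exon of BCL2 is shared. Among the BH3-only genes, BCL2L11 shares 10.8% of its exon length with MIR4435-2HG on the opposite strand (22 reads in all).

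**Figure D1:**
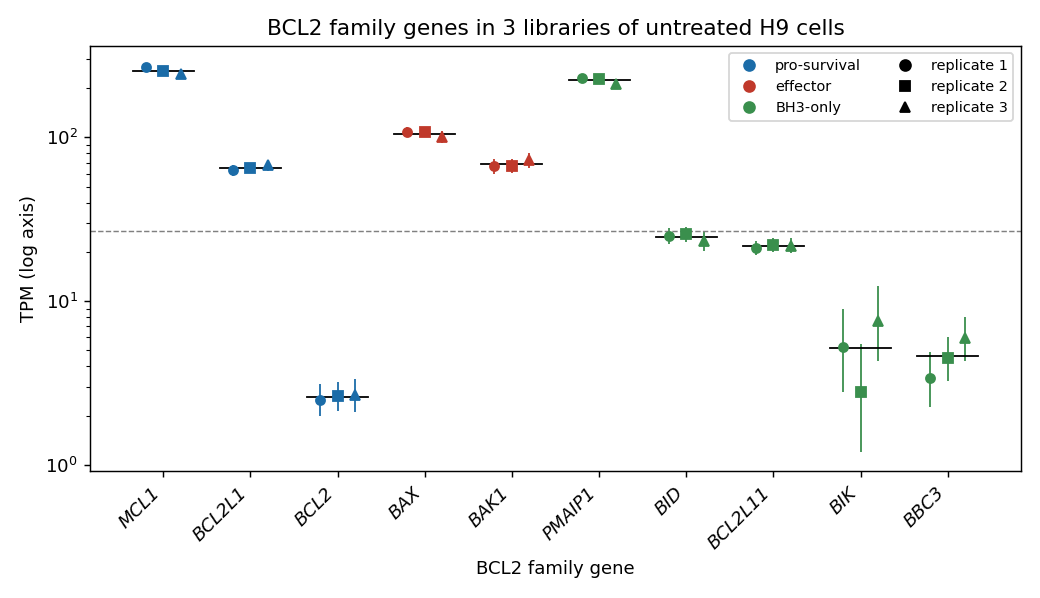
TPM (log axis) of the 10 BCL2 family genes, grouped by role, in 3 libraries of untreated H9 cells. Points are libraries, vertical bars are exact 95% Poisson intervals of the counts, horizontal lines are means, and the dashed line is the boundary of the high class at 26.96 TPM; MCL1 and PMAIP1 stood above 200 TPM in every library, BCL2, BIK and BBC3 stayed below 10 TPM.

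Both effector genes were well expressed. BAX, whose product moves from the cytosol to mitochondria on activation (ENSG00000087088, chr19:48954815-48961798), had 725, 847 and 577 reads and 108, 108 and 100.5 TPM, with a mean of 105.5 ± 4.30 TPM (SD, n = 3). BAK1, whose product resides in the mitochondrial outer membrane (ENSG00000030110, chr6:33572547-33580293), had 384, 449 and 357 reads and 66.7, 67.1 and 72.7 TPM, with a mean of 68.8 ± 3.37 TPM (SD, n = 3). BAX was above BAK1 in 3 of 3 libraries, by 1.61, 1.61 and 1.38 times, and the ranges of the genes did not overlap. Replicate 3 held the lowest BAX value, the highest BAK1 value and so the smallest ratio. BAX stood above 92.2% and BAK1 above 87.3% of protein-coding genes.

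The distance between BAX and BAK1 rested on the length assigned to BAX. GENCODE lists 12 transcripts of BAX whose exons together cover 2587 bp, while the canonical transcript has 795 bp, a factor of 3.25. For BAK1, with 2 transcripts, the factor is 1.02. With canonical transcripts as gene length BAX had 207 ± 7.63 TPM and BAK1 42.3 ± 2.25 TPM (SD, n = 3), and the ratio of BAX to BAK1 rose from 1.54 to 4.90. Which BAX transcripts these cells made cannot be read from counts per gene. A processed pseudogene, BAK1P1 on chromosome 20, matches the BAK1 transcript over 636 bp at 98.3% identity, and BAK1P2 on chromosome 11 at 92.3%. BAK1P1 was assigned 1, 2 and 0 reads and BAK1P2 none, and reads without a unique place in the alignment were not examined here.

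Among the 5 BH3-only genes, PMAIP1 was far above the rest. PMAIP1 encodes NOXA, a p53 target that binds mainly MCL1 (ENSG00000141682, chr18:59899996-59904305). It had 1321, 1514 and 1025 reads and 232, 229 and 211 TPM, with a mean of 224 ± 11.2 TPM (SD, n = 3), above 97.0% of protein-coding genes. PMAIP1 made up 79.9 ± 1.45% of the summed TPM of BH3-only genes. BID, whose product is cut by caspase 8 and so links death receptors to mitochondria (ENSG00000015475, chr22:17734138-17774770), had 288, 342 and 228 reads and 25.0, 25.6 and 23.2 TPM, with a mean of 24.6 ± 1.22 TPM (SD, n = 3). BCL2L11, which encodes BIM, a protein that binds all pro-survival members (ENSG00000153094, chr2:111119378-111168444), had 371, 450 and 327 reads and 21.1, 22.1 and 21.9 TPM, with a mean of 21.7 ± 0.482 TPM (SD, n = 3). BID and BCL2L11 were thus far below PMAIP1 and close to each other, with BID above by 1.18, 1.16 and 1.06 times. With canonical transcripts as gene length BID was above by 1.82, 1.78 and 1.63 times, and in CPM, the count scaled to the library total and not per length, BID was lower, at 27.5 against 37.0 CPM. With shared bases left out of the length and all reads kept, the means were 24.6 TPM for BID and 24.3 TPM for BCL2L11.

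BBC3 and BIK had the fewest reads of the members. BBC3 encodes PUMA, like NOXA a p53 target (ENSG00000105327, chr19:47220822-47232766), and had 28, 43 and 42 reads and 3.38, 4.46 and 5.94 TPM, with a mean of 4.59 ± 1.29 TPM (SD, n = 3). The counting interval was 2.24 to 4.88 TPM in replicate 1 and 4.28 to 8.03 TPM in replicate 3, so that these intervals overlapped. BIK, whose product acts at the endoplasmic reticulum (ENSG00000100290, chr22:43110750-43129712), had 13, 8 and 16 reads and 5.25, 2.78 and 7.58 TPM, with a mean of 5.20 ± 2.40 TPM (SD, n = 3). Its highest and lowest libraries differed by 2.73 times, and the counting intervals were 1.20 to 5.48 TPM in replicate 2 and 4.33 to 12.3 TPM in replicate 3. PMAIP1 exceeded BBC3 by 68.7, 51.3 and 35.6 times in replicates 1, 2 and 3.

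MCL1 and PMAIP1, whose products are known to bind each other, had the highest levels of the family. MCL1 was above PMAIP1 by 1.15, 1.11 and 1.16 times, and their ranges of 245 to 268 TPM and 211 to 232 TPM did not overlap. The excess was 0.19 on the log2 scale, against an SD of 0.0351 between libraries. With the canonical transcript as gene length BAX came between them, at 1.31, 1.34 and 1.34 times the level of PMAIP1, while MCL1 stayed above BAX by 1.20, 1.14 and 1.18 times.

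By mean TPM the members ran from MCL1 through PMAIP1, BAX, BAK1, BCL2L1, BID, BCL2L11, BIK and BBC3 to BCL2. The order was the same in replicates 1 and 3, and in replicate 2 BBC3 stood above BIK. Neighbors were taken as apart where the log2 ratio had the same sign in all 3 libraries and its mean exceeded its SD, which held for 8 of 9 neighboring pairs. The exception was BIK and BBC3, with ratios of 1.55, 0.623 and 1.28. The ranges over libraries overlapped for this pair and for BAK1 and BCL2L1, whose ratio within a library was 1.06, 1.04 and 1.07. The exact sign-flip permutation p was 0.25 for each of the 8 pairs and 1.0 for BIK and BBC3 (0.281 and 1.0 after Benjamini-Hochberg adjustment over the 9 pairs), and with 3 libraries none could pass a threshold of 0.05. The same 3 libraries set the order and were used to judge it. The 8 of 9 pairs thus describe the order and do not test it. With canonical transcripts as gene length, 6 of the 9 neighboring pairs kept this order: BAX passed PMAIP1, BCL2L1 (64.1 TPM) passed BAK1 (42.3 TPM), and BBC3 (4.79 TPM) passed BIK (3.14 TPM). BCL2L1 (110.8 TPM) also passed BAK1 (71.7 TPM) with shared bases left out of the length. In CPM BCL2 was not the lowest, at 8.29 CPM against 3.71 for BBC3 and 1.255 for BIK.

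Summed over the members, TPM was 795, 780 and 759 in the 3 libraries. Pro-survival genes held 41.6 ± 0.384%, BH3-only genes 36.0 ± 0.407% and effectors 22.4 ± 0.444% of the sum (SD, n = 3), so the shares varied little between libraries. The shares were carried by few genes, as MCL1 alone held 32.9 ± 0.737% and PMAIP1 28.8 ± 0.829% of the sum. With canonical transcripts as gene length effectors held 32.4% and BH3-only genes 27.4%, in the reverse order. These are shares of RNA per transcript length and say nothing of the amount of each protein.

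**Figure D2:**
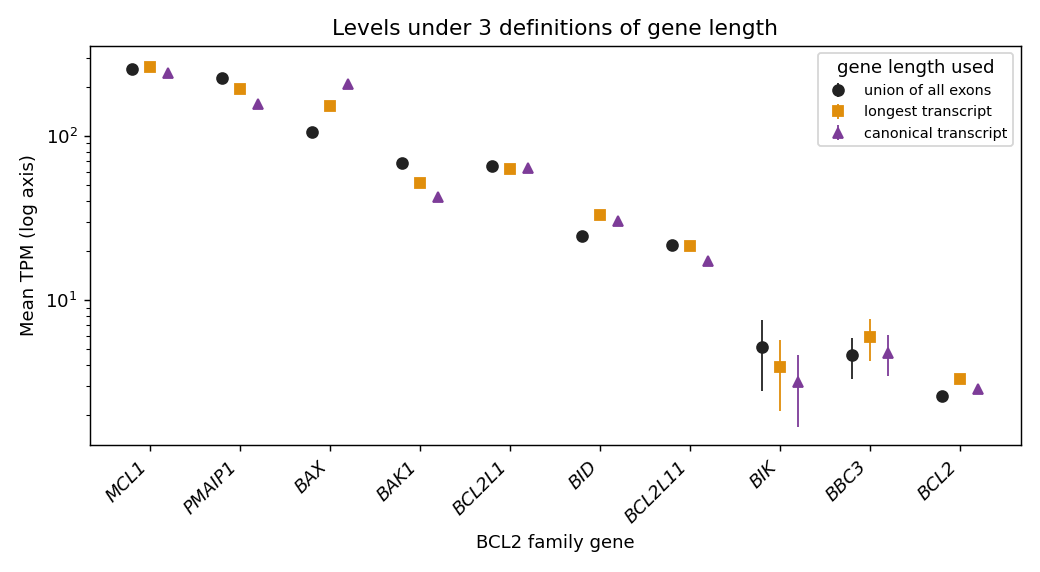
Mean TPM (log axis) of each BCL2 family gene with the union of exons, the longest transcript or the canonical transcript as gene length, and bars of 1 SD over 3 libraries. BAX moved from 105.5 to 207 TPM and passed PMAIP1, which moved from 224 to 156 TPM. By mean MCL1 stayed highest and BCL2 lowest. With the canonical transcript BIK, at 3.14 ± 1.46 TPM, was within 1 SD of BCL2, at 2.87 ± 0.112 TPM.

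All 10 members were at 1 TPM or more, which held for 67.4% of protein-coding genes. With classes as the study defined them, in which genes below 0.01 TPM are nonexpressed and the rest are divided into 3 quantiles, 5 of 10 members were in the high class, above 26.96 TPM, against 28.8% of protein-coding genes. Those 5 were MCL1, PMAIP1, BAX, BAK1 and BCL2L1. BID, BCL2L11, BIK and BBC3 were in the medium class, and BCL2 in the low class, below 3.35 TPM. BID at 24.6 TPM was just outside the high class, and with canonical transcripts as gene length it entered it, at 30.2 TPM. Together 9 of 10 members were high or medium, against 57.6% of protein-coding genes. With each replicate classified alone, every member of the high class was high in all 3. BBC3 was low in replicate 1 and BIK low in replicate 2, while both were medium in the others. The median over the members was 44.9 TPM, and over all protein-coding genes it was 7.10 TPM.

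**Figure D3:**
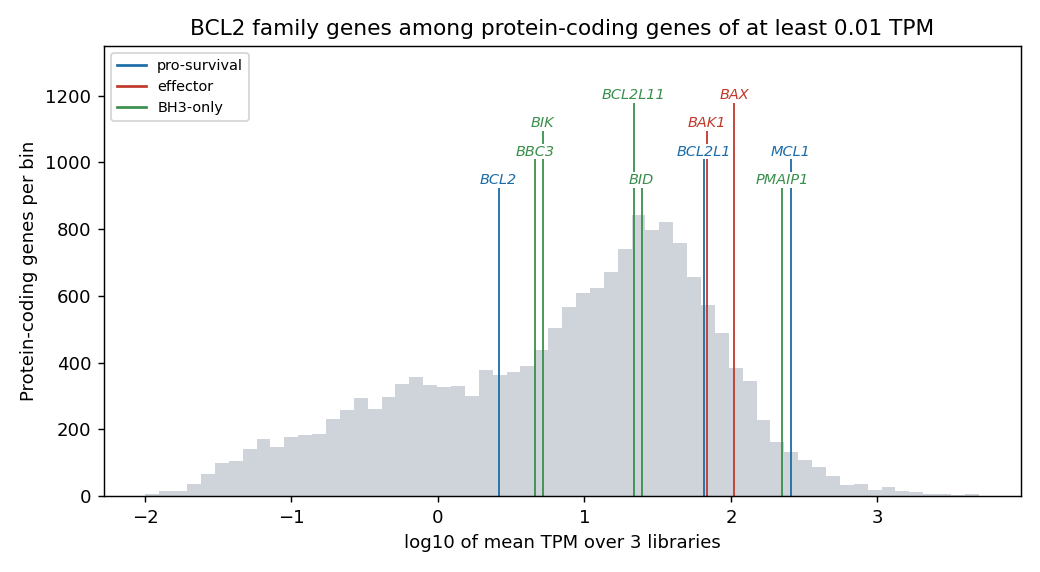
Number of protein-coding genes by log10 of mean TPM over 3 libraries (gray bars, genes of at least 0.01 TPM), with a line at each BCL2 family gene colored by role. MCL1 and PMAIP1 stood in the upper tail, above 97.4% and 97.0% of all protein-coding genes, and BCL2 above 40.3%.

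The spread between libraries was compared with what counting alone would give. The coefficient of variation (CV) of CPM was between 2.92% (BAX) and 6.17% (BAK1) for the 8 members other than BBC3 and BIK. Across 9386 protein-coding genes with at least 100 counts in every library its median was 5.28%. For BCL2 the CV was 4.67%, less than the 10.9% expected from counting, and BAX, BCL2L11 and BID were also below the counting value. MCL1, with 12510 reads in all, had a CV of 3.37% against 1.56% from counting. The CV was 29.3% for BBC3 against 16.5% from counting, and 47.1% for BIK against 28.7%. With 3 libraries a CV is itself imprecise, and no test was made of these differences.

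**Figure D4:**
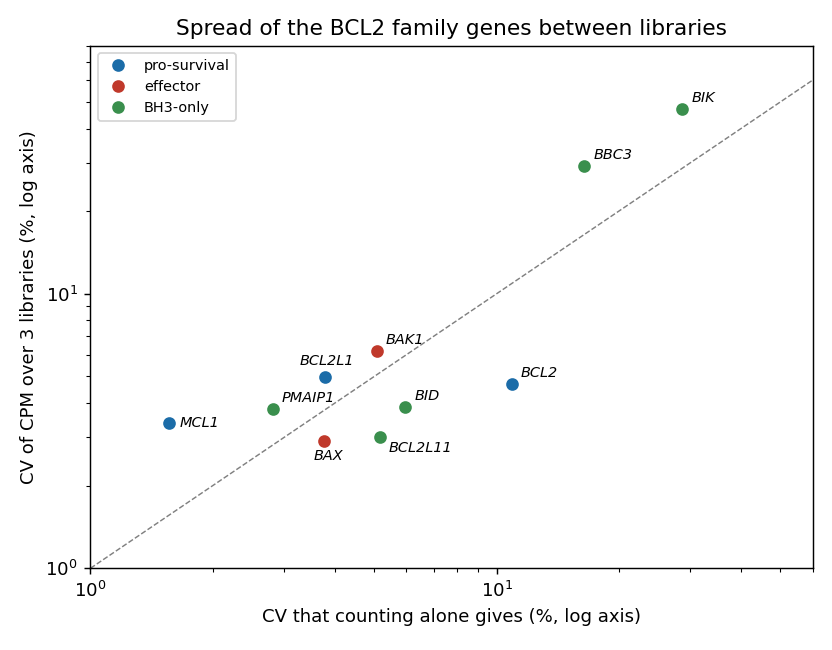
CV of CPM over 3 libraries against the CV that counting alone gives, both in percent on log axes, for each BCL2 family gene; the dashed line marks equality. BIK and BBC3, with 37 and 113 reads in all, had the largest spread, and MCL1 and PMAIP1 lay above the line at CVs of 3.37% and 3.81%.

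Replicate 3 stood apart in genes of high exon GC content. Over the third of protein-coding genes with exon GC content of at least 52.2%, the median log2 ratio of replicate 3 to the mean of the others was 0.108, against -0.0437 in the third of lowest GC content. BBC3, with the highest exon GC content of the members at 64.4%, had a log2 ratio of 0.63. BAK1, at 58.8% GC, had 0.15 and BCL2L1, at 57.8%, had 0.12, while BAX, at 60.7%, had -0.07. BIK, at 55.9% GC, had 0.95, from few reads, and BID, at 52.99%, had -0.09. Of the members with lower GC content, BCL2 had 0.10 at 43.3% GC, BCL2L11 0.05 at 47.4%, MCL1 -0.06 at 45.5% and PMAIP1 -0.10 at 40.0%. Members of high GC content thus lay on either side of 0, as did the others. The part of GC content in the values of single members was not tested. Without replicate 3 the ratio of BAX to BAK1 was 1.61 and that of MCL1 to BCL2L1 4.09.

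None of the 12 other genes of the BCL2 family examined reached the mean of BCL2L1, and 4 were below BCL2. Of the 12, 5 were in the high class (BOK, BCL2L12, BNIP3, BMF and BCL2L13), 3 in the medium class and 4 in the low class, with a median of 14.3 TPM. Of all protein-coding genes, 28.8% were high and 57.6% high or medium, and no test was made of the difference. BOK, an effector-like member, had 67.9, 60.7 and 65.9 TPM, a mean of 64.8 ± 3.75 TPM (SD, n = 3), close to BAK1 and BCL2L1. It was above BCL2L1 in replicate 1 (67.9 against 63.0 TPM) and below it in replicates 2 and 3. The pro-survival genes BCL2A1 and BCL2L10 had 1 read each over the 3 libraries, in replicate 2 and replicate 3, respectively, and BCL2L2 had 13.2 ± 2.27 TPM. All 3 were thus below MCL1 and BCL2L1 in every library, and BCL2L2 was above BCL2. Among other BH3-only genes BMF had 28.5 ± 4.86 TPM, BAD 15.5 ± 4.16 TPM and HRK 5.53 ± 0.621 TPM (SD, n = 3). BCL2L2 shares 24.8% of its exon length with other genes, BCL2L12 25.9% and BAD 23.7%, which limits their levels. BCL2L13 lies on chromosome 22, 3282 bp from BID, and had 27.7 ± 1.54 TPM.

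Genes of the apoptosome and caspases were expressed unevenly. CYCS, which encodes cytochrome c, had 187 ± 7.93 TPM, while APAF1, which it activates to build the apoptosome, had 16.9 ± 0.277 TPM (SD, n = 3). Of 7 genes of the apoptosome and the caspases, 3 were high, 3 medium and 1 low. Of all protein-coding genes, 28.8% were high and 57.6% high or medium. The initiators CASP9 and CASP8 had 12.1 ± 1.48 and 3.37 ± 0.270 TPM. CASP10 was lowest at 1.97 ± 0.139 TPM. CASP8 encodes the protease that cuts the BID protein, and its TPM was below that of BID in every library.

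Of 6 genes for caspase inhibitors and their antagonists 4 were high, where 28.8% of all protein-coding genes were. BIRC5, which encodes survivin and serves in mitosis as well, was highest at 196 ± 3.40 TPM (SD, n = 3), XIAP had 33.0 ± 1.65 TPM, and BIRC3 received 2 reads, both in replicate 2. The antagonist gene DIABLO had 6.61 ± 0.437 TPM, with 32.3% of its exon length shared with other genes. All 3 genes of the mitochondrial channels of the VDAC family, of which VDAC2 is known to bind BAK1, were high, from 128 TPM (VDAC3) to 344 TPM (VDAC1). Among enzymes that set the turnover of MCL1, the ligase gene HUWE1 had 151 ± 16.5 TPM, FBXW7 12.7 ± 1.22 TPM, and USP9X, a deubiquitinase, 133, 147 and 190 TPM. Death receptor genes were mixed, with TNFRSF10B at 61.8 ± 3.83 TPM and FAS at 0.179 ± 0.00859 TPM (SD, n = 3). FAS had 14, 15 and 12 reads, while BIK, with 13, 8 and 16 reads, had 5.20 TPM. The low TPM of FAS thus depends on the exon length assigned to it, which is longer than that of BIK. Its level with other lengths is not reported here. FADD, which encodes an adaptor of death receptors, had 68.6 ± 5.43 TPM (SD, n = 3). Of the exon length of FADD, 59.2% is shared with other genes.

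**Figure D5:**
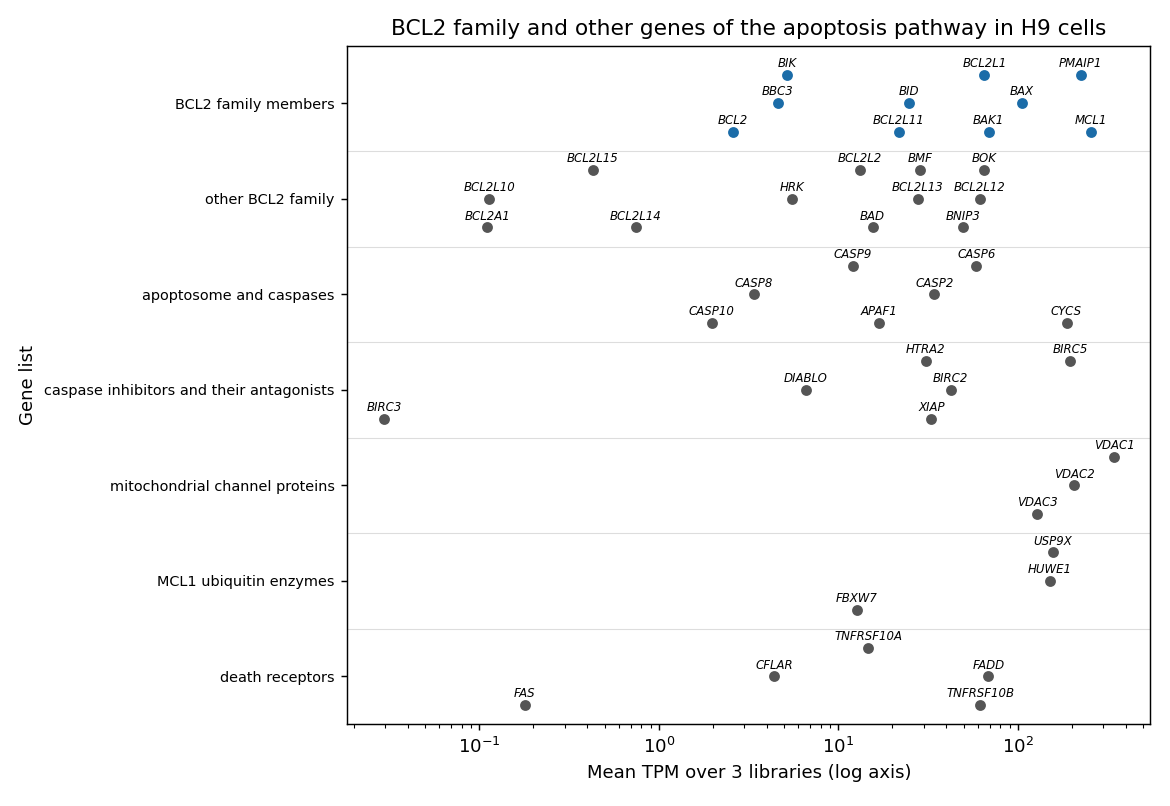
Mean TPM (log axis) over 3 libraries of the 10 BCL2 family genes (blue) and of 36 other genes in 6 lists of the apoptosis pathway (gray), with 1 point a gene. MCL1 and PMAIP1 were higher than any of the 12 other BCL2 family genes, of which BOK was highest at 64.8 TPM.

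For each member, the 2 other protein-coding genes with the most similar TPM over the 3 libraries were found by Euclidean distance of log2(TPM + 0.1), a likeness of level only, as 3 libraries of 1 condition hold no pattern of regulation. SERPINH1 and DEK were closest to MCL1, with means of 254 and 258.5 TPM, and KARS1 and ICMT to PMAIP1, with 228 and 227 TPM. CDCA2 and UBXN4 were closest to BAX, KEAP1 and CACHD1 to BAK1, and QKI and ZBED1 to BCL2L1. ZNF689 and AP5M1 were closest to BID, XPNPEP3 and ZNF142 to BCL2L11, and KSR2 and THSD4 to BCL2. Distances were between 0.00602 and 0.0592 for these pairs. They were larger for BBC3, at 0.122 for SMTN and 0.141 for UBE2V1, and for BIK, at 0.385 for ZNF524 and 0.395 for SLC27A6.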

How the data were processed

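RNA of 3 replicates of untreated H9 cells was analysed. Per the methods and the labels, the authors trimmed reads with Trim Galore (0.4.4) and aligned them to GRCh38 with TopHat2 (2.1.1). The deposited values are raw counts of reads per gene, without normalization. Which tool and annotation were used for counting, and whether strand was, is not given in the sources used here. The TPM values that the study made with Cufflinks (2.2.1) were not used here.

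Identifiers were matched to GENCODE release 44, also on GRCh38, with 56948 of 58051 (98.1%) found. TPM was computed from the counts and the union of exons, scaled over matched genes, and averaged over replicates. Unmatched genes, with 0.273% to 0.294% of counts, received no TPM. A count of 0 allows up to 3 counts. With 1 condition no differential test was possible, and neighboring members were compared by an exact sign-flip permutation test over libraries. Near-identical copies were searched with blastn (2.17.0) at 85% identity over at least 150 bp. The computation of TPM was checked on simulated counts of known level. Alternatives covered gene length, unit, scaling with edgeR (4.0.16) and DESeq2 (1.42.0), depth, classes and replicates. In the length without shared exons, genes with under 200 bp left were dropped, and the counts were left unchanged. R 4.3.3, Python 3.11.15, pandas 2.3.3, scipy 1.17.1, bedtools 2.31.1 and samtools 1.23.1 were used.

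The members and gene lists were chosen with earlier results of these data known. Genes named were the members, the highest and lowest genes of each list and those in another class than the rest of it, the nearest 2 genes in level, and genes that overlap or copy a member. Some genes of the caspase list are not reported here. Other genes of the lists were named after their values were seen.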

Additional observations from a re-analysis of the deposited data

How the results depend on the processing

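Rescaling by TMM or DESeq2 factors, the median of the replicates and leaving mitochondrial genes out of the total changed none of the shares, ratios, order or class counts beyond the spread between libraries. Shares and ratios within a library do not depend on its total, so rescaling could not change them. Of the 10 levels, 4 rose by over 1 SD without mitochondrial genes. With the longest transcript, effectors held 25.7% and BH3-only genes 32.6% of the summed TPM, and the ratios of BAX to BAK1 and MCL1 to BCL2 were 2.93 and 79.8. With the canonical transcript, the shares were 40.2% pro-survival, 32.4% effector and 27.4% BH3-only, and those ratios were 4.90 and 84.7. With shared exon bases left out of the length but all reads kept, the shares were 45.5%, 21.0% and 33.5%. The ratio of MCL1 to BCL2L1 was then 2.44. In CPM, which is not per length, the shares were 61.5%, 13.8% and 24.8%, the ratios of BAX to BAK1, MCL1 to BCL2L1 and MCL1 to BCL2 were 1.80, 5.83 and 48.6, and 5 of 9 neighboring pairs kept their order. These follow from the lengths used. Counts thinned to 10% gave a ratio of MCL1 to BCL2 of 107 (median of 11 draws). The thinned levels, 253 TPM for MCL1 and 2.66 TPM for BCL2, stayed within the spread between libraries. The cause was not tested. Of the 10 levels, 7 moved by over 1.5 times in CPM, 3 with the canonical transcript and 1, BCL2L1, without shared bases.

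The number of members in the high class was 5 or 6 under all alternatives but the classification of all genes, with 7. Without replicate 1, 2 or 3, it was 5, 8 or 9 of 9 neighboring pairs kept their order, the pro-survival share was 41.4% to 41.8%, and the ratio of BAX to BAK1 was 1.50 to 1.61. Depth limits BIK, BBC3 and BCL2, with 37, 113 and 257 reads in all. No paired analysis was possible because there is 1 condition.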
